A study of Drosophila melanogaster with 48 samples.

Results

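The genes described here are the cytosolic ribosomal protein genes of Drosophila melanogaster, taken as every gene whose FlyBase symbol begins with RpL or RpS and a number, together with RpLP0, RpLP1, RpLP2 and sta. The rule found 87 of the 15065 gene IDs in the deposited tables, 50 for the large and 37 for the small subunit. Of these, 74 are the main or only copy of their protein and 13 are paralogs, copies that are mostly low in these cells. At least 1 read fell on 86 of the 87, and 5 had fewer than 20 reads over all libraries (RpL10Aa, RpL7-like, RpS28-like, RpS28a and RpS6). RpS6, the substrate of S6 kinase, is a main copy by name but had 18 reads in all, so no level is read from it. RpL19, RpL27A, RpL31, RpS10b and RpS12 were not analysed here.

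Each cytosolic ribosome is built from one copy of nearly all of these proteins, and the genes are among the most strongly transcribed of growing cells. Their promoters share an initiator rich in pyrimidines, their mRNAs are short and stable, and their output is tied to growth through the TOR pathway. Loss of one copy of such a gene gives flies the Minute phenotype of slow growth and thin bristles.

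The study depleted subunits of the RNA exosome, the complex that trims and degrades RNA from its 3′ end, and mapped where the exosome binds. Double-stranded RNA (2 ug) against Rrp6, Rrp40, Csl4 or, as the control, green fluorescent protein (GFP), which the cells lack, was transfected into the cultured lines S2 and S3, both derived from late embryos, and RNA was taken on day 5. Rrp6 is the nuclear exonuclease of the complex, while Rrp40 and Csl4 are cap subunits that bind RNA. RNA was either selected on its poly(A) tail or depleted of ribosomal RNA (RiboMinus). The groups were Rrp6, Rrp40, Csl4 and GFP dsRNA in each of S3 poly(A), S3 RiboMinus, S2 poly(A) and S2 RiboMinus RNA, on otherwise unmodified cells. Most groups held 2 libraries. S3 poly(A) GFP held 3, and Rrp40 in S2 poly(A) and all 4 groups of S2 RiboMinus held 1. The labels call replicates biological without saying how the cultures were kept apart.

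Libraries held 532934 to 69426568 reads on genes in poly(A) RNA, 108782 to 9212060 in S3 RiboMinus and 67743 to 157282 in S2 RiboMinus RNA. Each replicated group had deeper libraries (replicates 1 and 2) and a shallower one (replicate 3), and tests carry this class as a block. The labels set replicate 1 apart from replicate 3 by the encoding of quality scores. Technical runs of replicate 2, the deeper library of every S3 RiboMinus group, hold both encodings, so the encoding does not mark the classes there. The mean level of the targeted gene was higher, not lower, in its own knockdown group in 12 of 12 pairings of a target with a line and fraction. One library went the other way: Csl4 had 41.3 CPM (read counts scaled to library size, here 22 reads) in the shallower Csl4-labelled S2 poly(A) library, against 83.5 and 86.2 CPM in the S2 GFP libraries. Rrp6 had 181 to 183565 CPM in the libraries of its own knockdown and 28.9 to 103 in GFP libraries. Whether the targets were depleted can thus not be read from these values, and libraries are called Rrp6-labelled, Rrp40-labelled and Csl4-labelled throughout. All 8 markers listed for S2 as a haemocyte-like line were in the files, and their sum was 2059 to 4329 CPM in S3 poly(A) libraries, 2066 to 6582 CPM in S3 RiboMinus libraries and 599 to 1516 CPM in S2 poly(A) libraries. The sum does not stand for the whole list. With GFP dsRNA 2 of the 8 were higher and 1 lower in S3 than in S2 poly(A) RNA (edgeR), against 17.0% and 18.6% of all genes. Their median log2 difference was -0.21, with 5 of the 8 below 0. The sum of 4 neuron markers was above all GFP libraries with the Rrp6 label in each replicated set, at 27.5 to 70.5 CPM against 14.9 to 21.9 with GFP in S3 poly(A), 95 to 131 against 40.5 to 79.6 in S3 RiboMinus and 197 to 303 against 44.7 to 91.5 in S2 poly(A) libraries. Of 2 neuron markers tested, 1, 2 and 2 passed as higher in that order (edgeR), against 19.7, 12.4 and 20.2% of all genes. Up to 2 of the 4 were at 0 in a library, and their part in the results below was not tested. In these bulk cultures fewer cells and less RNA per cell cannot be told apart.

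Ribosomal protein genes took a smaller part of the gene reads in every Rrp6-labelled poly(A) library than in the GFP library of the same line and depth class. In S3 poly(A) RNA they held 5.03% of gene reads in the deeper and 12.4% in the shallower Rrp6-labelled library, against 12.7 and 14.9% in the deeper GFP libraries and 21.9% in the shallower one. Both Rrp6-labelled libraries thus lay below all 3 GFP libraries. The Rrp40-labelled libraries held 15.8 and 22.8% and the Csl4-labelled ones 11.1 and 22.5% in the same order, inside or near the GFP range. Exact binomial 95% intervals, which cover counting error only, ran from 5.01 to 5.04% for the deeper Rrp6-labelled library and from 12.3 to 12.5% for the shallower one.

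In S3 RiboMinus RNA the share was 4.95 and 3.95% in the deeper and shallower Rrp6-labelled libraries, against 9.55 and 8.91% in the GFP libraries. Csl4-labelled libraries (7.0 and 5.45%) and Rrp40-labelled libraries (8.37 and 7.05%) lay between, with no overlap with GFP. The S2 poly(A) share was 16.8 and 19.4% with the Rrp6 label and 20.4 and 23.9% with the Csl4 label, against 19.4 and 22.5% with GFP. The only Rrp40-labelled library of that set, a shallower one, held 23.2%. Here the Rrp6-labelled libraries were lower within each depth class, but their shallower library lay at the level of the deeper GFP library.

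**Figure D1:**
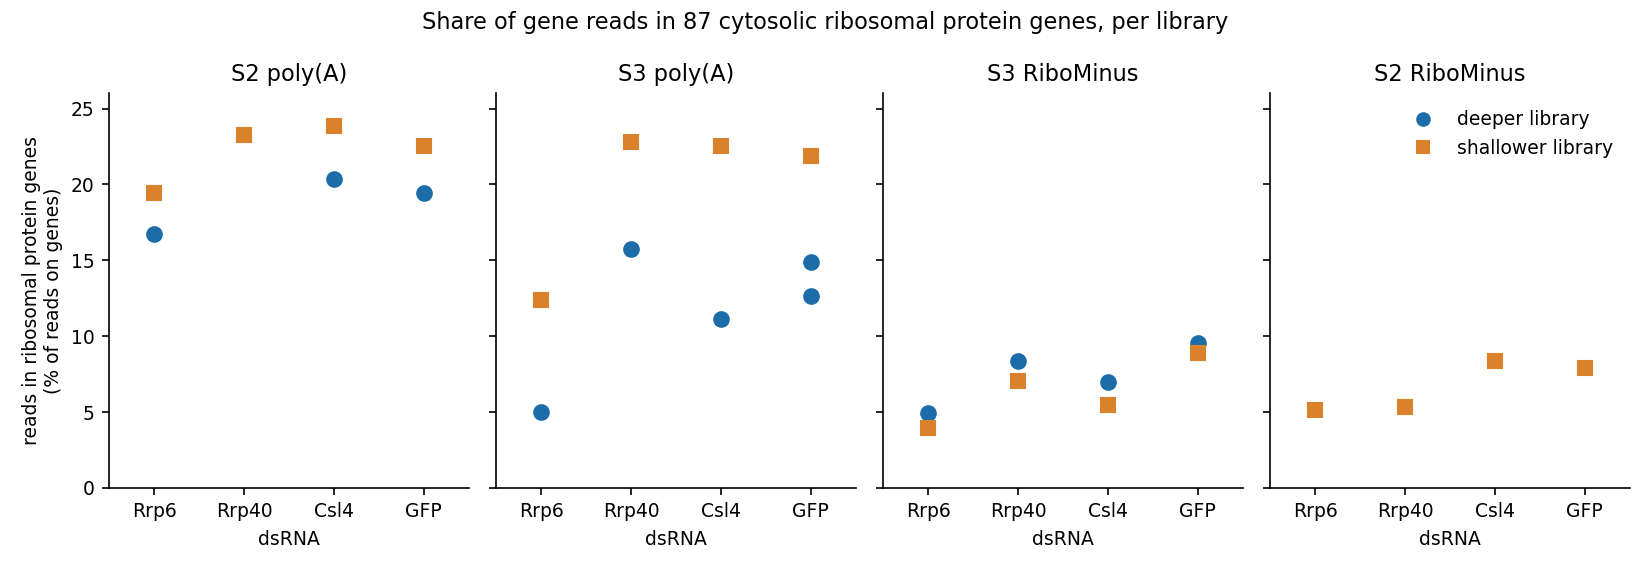
Share of gene reads on the 87 ribosomal protein genes (vertical axis, percent) in each library, by line, RNA fraction and dsRNA, with circles for deeper and squares for shallower libraries. The 2 Rrp6-labelled libraries lie below every GFP library in S3 poly(A) (5.03 and 12.4%) and S3 RiboMinus RNA (4.95 and 3.95%).

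Depth class itself moved these genes. In GFP libraries their median log2 difference, deeper minus shallower, was -1.09 for S3 poly(A) RNA, 0.20 for S3 RiboMinus RNA and -0.30 for S2 poly(A) RNA. Rrp6-labelled libraries had -1.58, 0.39 and -0.41 in the same 3 sets. For S3 poly(A) RNA the class difference was thus about as large as the difference between labels, and which property of the classes it follows was not tested.

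The fall in S3 cells was common to nearly all main copies. In S3 poly(A) RNA 79 of the 87 genes passed the filter on low counts, and 72 of them were lower and 1 was higher in Rrp6-labelled than in GFP libraries at an adjusted p of at most 0.05 (edgeR quasi-likelihood test, 2 against 3 libraries). Over all 7923 genes tested, 16.4% were lower and 19.7% were higher by the same test. The median log2 change was -1.36 for the ribosomal protein genes and 0.01 for all genes. All 73 main copies tested had a value below 0, and for 71 it was past a 2-fold reduction. The standard deviation among main copies was 0.31 on the log2 scale, and the median standard error of one gene was 0.26. Differences between libraries that all these genes share enter that error but not the spread among genes. The 2 values therefore cannot show how far the genes differ from each other. These calls depend on the depth block: with no block 0 members were called lower in this or in the other Rrp6 comparisons, and in S3 poly(A) RNA the median was then -1.05.

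**Figure D2:**
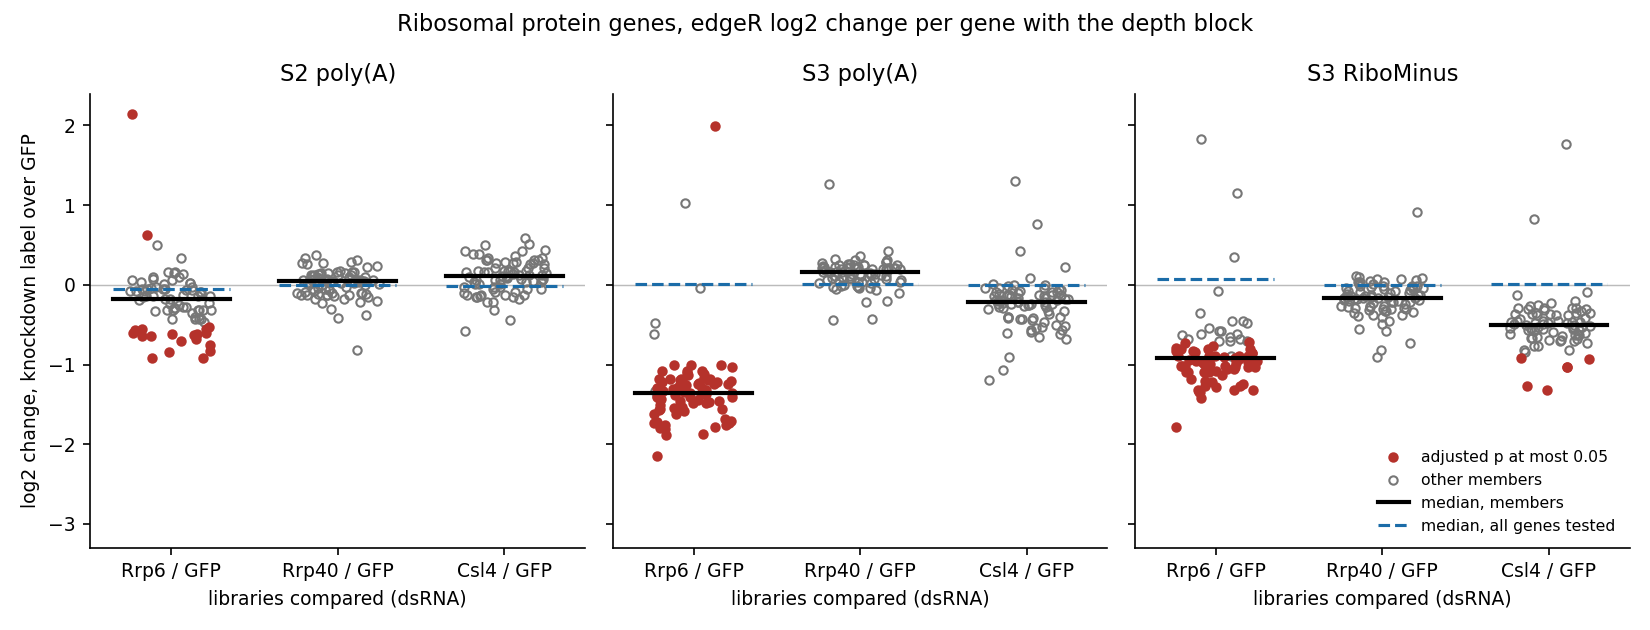
Log2 change of each ribosomal protein gene tested, knockdown label over GFP, by line and fraction (vertical axis, log2 scale). Filled points passed an adjusted p of 0.05, solid bars are medians of these genes and dashed bars medians of all genes tested. The Rrp6 label has medians of -1.36 for S3 poly(A) RNA, -0.92 for S3 RiboMinus RNA and -0.18 for S2 poly(A) RNA. The Csl4 label has -0.22 for S3 poly(A) and -0.50 for S3 RiboMinus RNA. The Rrp40 label, and Csl4 in S2 poly(A) RNA, centre nearer 0.

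Values for single genes are CPM with TMM scaling, deeper libraries first, and changes are log2 values ± SE with Benjamini-Hochberg adjusted p over all genes (edgeR). The scaling factors come from each line and fraction alone, so CPM of different lines or fractions are not on one scale. Tests between lines or fractions use the factors of a joint fit. RpS2, a small-subunit protein near the mRNA entry, changed most among main copies in S3 poly(A) RNA. It had 473 and 1644 CPM in the Rrp6-labelled libraries and 2680, 2617 and 5611 in the GFP libraries, and the groups did not overlap. Its change was -2.14 ± 0.26 (adjusted p = 0.000457). RpS20, a small-subunit head protein, had 188 and 685 CPM with the Rrp6 label, against 863, 982 and 1847 with GFP, and fell by 1.89 on the log2 scale (± 0.29, adjusted p = 0.00128). Again no Rrp6-labelled library reached the lowest GFP library. sta, the small-subunit protein uS2 and homologue of the laminin receptor, had 563 and 1920 with the Rrp6 label, against 1840, 2545 and 5231 with GFP. It fell by 1.72 ± 0.25 (adjusted p = 0.00108), although its shallower Rrp6-labelled library lay above the lowest GFP library. RpS3, which lines the mRNA channel and also has a role in DNA repair, had 866 and 2404 against 2466, 2622 and 5589 and fell by 1.4 ± 0.21 (adjusted p = 0.00128).

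Of the stalk proteins, which bring elongation factors to the large subunit, RpLP0 and RpLP2 fell and RpLP1 missed the threshold. RpLP0 had 482 and 1927 CPM in Rrp6-labelled S3 poly(A) libraries, against 2521, 2729 and 4558 in GFP libraries, without overlap. Its change was -1.88 ± 0.30 (adjusted p = 0.00162). RpLP2 changed by -1.46 ± 0.23 (adjusted p = 0.00161), and RpLP1 by -1.33 ± 0.48 (adjusted p = 0.0541). RpLP1 had the wider error: its 329 and 1704 CPM stood against 1227, 1935 and 2130.

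RpL5 and RpL11, which enter the ribosome together with the 5S RNA, fell in S3 poly(A) RNA (RpL5 -1.18 ± 0.27, adjusted p = 0.00894, and RpL11 -1.56 ± 0.24, adjusted p = 0.00138). RpL11 had 653 and 1450 CPM in Rrp6-labelled libraries, against 1473, 2186 and 4596 in GFP libraries. Both of its Rrp6-labelled values were below all GFP values, by a small margin for the shallower library. RpL3, next to the peptidyl transferase centre, had 510 and 1600 against 1679, 1914 and 4838, again without overlap, and fell by 1.76 ± 0.26 (adjusted p = 0.00104). RpL10, one of the last proteins to join the large subunit, fell by 1.22 ± 0.22 (adjusted p = 0.00289), and RpL22 fell by 1.13 ± 0.24 (adjusted p = 0.00638).

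Both genes that encode a ribosomal protein fused to ubiquitin fell. RpL40 had 501 and 1468 CPM in Rrp6-labelled S3 poly(A) libraries, against 1866, 2203 and 3040 in GFP libraries. It fell by 1.57 ± 0.31 (adjusted p = 0.00402) with no overlap, and RpS27A fell by 1.03 ± 0.27 (adjusted p = 0.015).

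RpS27, a zinc-binding small-subunit protein, stood at the other end of the range. It had 911 and 2800 CPM in Rrp6-labelled S3 poly(A) libraries, against 1129, 1369 and 2104 in GFP libraries, so its shallower Rrp6-labelled library was the highest of the 5. The change was -0.04 ± 0.30 (adjusted p = 0.926). RpL21 changed by -0.48 ± 0.21 (adjusted p = 0.099), and RpL7A, the third highest main copy, by -1.0 ± 0.23 (adjusted p = 0.00837). A p above the threshold for RpS27 and RpL21 does not show that they were level with GFP.

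In rRNA-depleted RNA of the same line the fall was again broad. Of 79 genes tested in S3 RiboMinus RNA, 58 were lower and 0 were higher in Rrp6-labelled than in GFP libraries (edgeR), where 7.35% of all genes tested were lower and 12.4% higher. The median log2 change was -0.92, against 0.07 for all genes, and 28 main copies were past a 2-fold reduction. All 58 were also among the genes called lower in S3 poly(A) RNA, of which they made up 80.6%. Since 72 of 79 members were called there, most of any 58 members would be shared. The matching overlap over all genes is not given here. The fractions were sequenced from different libraries but may stem from the same cultures.

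RpL41, RpS9 and RpL36 changed most among main copies of this fraction. In this fit the spread was taken wholly from the trend over all genes, so a gene's own spread did not enter its p. The size of these p-values can thus not be set against those of S3 poly(A) RNA. RpL41, the shortest ribosomal protein, had 829 and 541 CPM in Rrp6-labelled S3 RiboMinus libraries, against 1783 and 1909 in GFP libraries, and fell by 1.42 ± 0.28 (adjusted p = 1.25e-05, edgeR). RpS9, whose bacterial and yeast homologues help set decoding accuracy, had 662 and 504 against 1610 and 1397 and fell by 1.35 ± 0.28 (adjusted p = 3.69e-05). RpL36 had 764 and 513 against 1607 and 1713 and fell by 1.34 ± 0.28 (adjusted p = 3.93e-05). In all 3 genes both Rrp6-labelled libraries were below both GFP libraries. RpS27 was again highest (0.35 ± 0.27, adjusted p = 0.421), followed by RpL22 (-0.08 ± 0.31, adjusted p = 0.897) and RpL21 (-0.35 ± 0.27, adjusted p = 0.415).

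Of the genes described by role above, these fell in S3 RiboMinus RNA by edgeR: RpS2 (-1.32 ± 0.28, adjusted p = 5.51e-05), RpL11 (-1.22 ± 0.28, adjusted p = 0.000223), RpLP2 (-1.09 ± 0.28, adjusted p = 0.0011) and sta (-1.06 ± 0.28, adjusted p = 0.00155). RpL40 (-1.06 ± 0.28, adjusted p = 0.00201) and RpLP0 (-0.77 ± 0.27, adjusted p = 0.0312) fell too. RpL5, RpLP1, RpS3, RpL10 and RpS27A did not pass the threshold in this fraction, with changes of -0.45 ± 0.28, -0.48 ± 0.28, -0.68 ± 0.27, -0.63 ± 0.27 and -0.66 ± 0.28. The shallower libraries hold few reads here: RpS20 rests on 16 reads in the Rrp6-labelled and 51 in the GFP library. Leaving out the deeper GFP library left 17 of the calls, and leaving out the deeper or the shallower Rrp6-labelled library gave 23 or 24 in all.

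In S2 poly(A) RNA the Rrp6 label went with lower levels of a minority of the genes. Of 80 tested, 18 were lower and 2 higher (edgeR), where 16.9% of all genes tested were lower and 20.2% higher. The share called lower is near that background, and the share called higher is under it. The median log2 change was -0.18, against -0.05 for all genes, and no main copy was past a 2-fold reduction. Without the deeper GFP library 4 members were called lower, and without the deeper Rrp6-labelled library 6.

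The genes with the lowest values in S2 were small-subunit genes. sta had 2095 and 2784 CPM in Rrp6-labelled S2 libraries, against 3596 and 5848 in GFP libraries, and fell by 0.92 ± 0.17 (adjusted p = 0.000307, edgeR). RpS20 had 628 and 473 against 1026 and 1057 and fell by 0.92 ± 0.20 (adjusted p = 0.000974). RpS2 had 2656 and 2878 against 4030 and 6121 and fell by 0.85 ± 0.18 (adjusted p = 0.00086). These 3 genes did not overlap between labels and were called lower whichever library was left out. RpLP0 (-0.65 ± 0.17, adjusted p = 0.00571), RpS3 (-0.64 ± 0.17, adjusted p = 0.00524), RpLP2 (-0.62 ± 0.17, adjusted p = 0.00659), RpL40 (-0.61 ± 0.18, adjusted p = 0.0113) and RpL11 (-0.55 ± 0.17, adjusted p = 0.0168) also fell.

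RpS27 rose in S2, with 2059 and 2475 CPM in Rrp6-labelled libraries, against 1246 and 1704 in GFP libraries (0.63 ± 0.18, adjusted p = 0.00908, edgeR). Its Rrp6-labelled values were above both GFP values, but the call was lost without the deeper library of either label. RpL22 (0.50 ± 0.26, adjusted p = 0.131) and RpL4 (0.33 ± 0.20, adjusted p = 0.183) came next among main copies. RpL22 shows why the error is wide: its 870 and 386 CPM stood against 443 and 431. RpS27 was the highest main copy in each of the 3 sets.

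Within depth classes, on log2 values with a pseudocount of 0.5 CPM, the direction held for most genes. For S3 poly(A) RNA 76 of 79 genes were lower in the Rrp6-labelled than in the GFP library of both classes, where 34.1% of all genes tested were, and the median log2 difference was -1.55 between deeper and -1.08 between shallower libraries. For S3 RiboMinus the count was 75 of 79, with 30.1% of all genes tested, and medians of -0.83 and -1.01. S2 poly(A) gave 47 of 80, with 39.6% of all genes tested, and medians of -0.25 and -0.20.

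Without the depth classes the separation was smaller. Every Rrp6-labelled library lay below every GFP library for 26 of 79 genes in S3 poly(A) (23.1% of all genes tested), 63 of 79 in S3 RiboMinus (19.4%) and 21 of 80 in S2 poly(A) RNA (23.6%). In S2 the count is thus near the background of all genes, and in S3 poly(A) RNA it is well under the 72 genes called with the block.

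**Figure D3:**
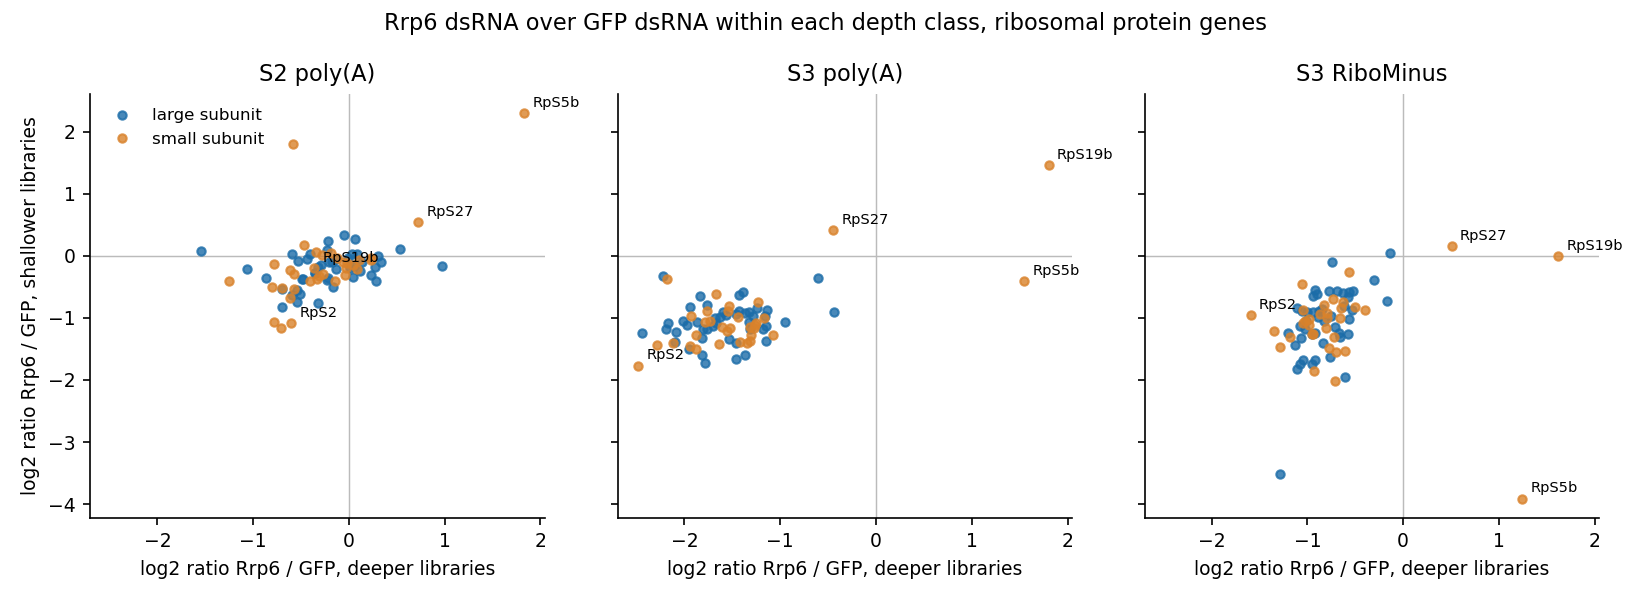
Log2 difference of each ribosomal protein gene between the Rrp6-labelled and the GFP library, in deeper libraries (horizontal axis) and shallower libraries (vertical axis), by line and fraction, with a pseudocount of 0.5 CPM and the subunits in different colours. In S3 cells 76 of 79 genes (poly(A)) and 75 of 79 (RiboMinus) are below 0 on both axes, against 47 of 80 in S2 poly(A) RNA.

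The Rrp40 label changed no ribosomal protein gene past the threshold in any of the 3 replicated sets. Here and below, member counts by DESeq2 or at an unadjusted p stand without the share of all genes, so they are not read against that background. Among S3 poly(A) libraries 0 of 79 were lower (0.0% of all genes) and 0 were higher (0.0% of all genes) by edgeR, 0 by DESeq2 and 1 at an unadjusted p under 0.05, and the median log2 change was 0.16. S3 RiboMinus also gave 0 in each direction by both tools, with 0.0241% of all genes lower and 0.193% higher by edgeR, 4 members at an unadjusted p under 0.05 and a median of -0.16. In S2 poly(A) RNA, where 1 Rrp40-labelled library is assumed to vary like the other groups, 0 of 80 were called by edgeR or DESeq2 and 0 had an unadjusted p under 0.05, with 0.0% of all genes lower and 0.101% higher by edgeR, and a median of 0.04.

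The Csl4 label changed 6 members, all in S3 RiboMinus RNA. There 6 of 79 were lower and 0 higher (edgeR), where 0.471% of all genes tested were lower and 1.69% higher, with a median of -0.50 against 0.01 for all genes. RpL15, a large-subunit core protein, had 1130 and 939 CPM in Csl4-labelled libraries, against 2196 and 3123 in GFP libraries. It fell by 1.33 ± 0.28 (adjusted p = 0.000421). RpL3 had 824 and 716 against 1696 and 2092 and fell by 1.27 ± 0.27 (adjusted p = 0.000772). In both genes the labels did not overlap. RpS29 (-1.03 ± 0.27, adjusted p = 0.0143), RpL41 (-1.03 ± 0.27, adjusted p = 0.0143), RpL24 (-0.93 ± 0.27, adjusted p = 0.0373) and RpL36 (-0.92 ± 0.27, adjusted p = 0.0407) were the other 4. Leaving out either the shallower Csl4-labelled or the deeper GFP library left 0 of the 6. In this fraction 73 of 79 genes were lower with the Csl4 label in both depth classes (25.4% of all genes tested), and for 52 of 79 every Csl4-labelled library lay below every GFP library (13.7%).

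In S3 poly(A) RNA the Csl4 label gave 0 members in either direction, with 0.0126% of all genes lower and 0.227% higher (edgeR), and a median of -0.22. DESeq2 called 3 members lower, and 9 had an unadjusted p under 0.05 in edgeR. RpL3 and RpL15 again had the lowest values, -1.20 ± 0.25 (adjusted p = 0.109) and -1.07 ± 0.26 (adjusted p = 0.16), without passing. They were also the lowest 2 with the Rrp40 label in this set (RpL3 -0.44 ± 0.24 and RpL15 -0.44 ± 0.25, adjusted p = 0.946 for each). These comparisons use the same GFP libraries. S2 poly(A) RNA gave 0 of 80 with the Csl4 label by edgeR and by DESeq2, with 0.139% of all genes lower and 1.82% higher by edgeR, 9 members at an unadjusted p under 0.05 and a median of 0.11.

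Set directly against each other, the Rrp6-labelled libraries were lower than the Csl4-labelled ones in poly(A) RNA. Of 79 genes tested in S3 poly(A) RNA 54 were lower and 0 higher (edgeR), against 7.27% of all genes lower and 7.31% higher, with a median of -1.12. RpS2 had 473 and 1644 CPM with the Rrp6 label and 1901 and 3714 with the Csl4 label, and its difference was -1.58 ± 0.26 (adjusted p = 0.0106). RpL23 (-1.43 ± 0.32, adjusted p = 0.0214) and RpS28b (-1.4 ± 0.22, adjusted p = 0.00983) followed. Without either Csl4-labelled library no member was called, and without the deeper Rrp6-labelled one 1 was.

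In S2 poly(A) RNA 13 of 80 were lower and 0 higher in Rrp6-labelled than in Csl4-labelled libraries (edgeR), against 5.48% and 7.94% of all genes, with a median of -0.35. RpS20 had the lowest value (-0.77 ± 0.20, adjusted p = 0.0122). The count was 0 without the deeper Csl4-labelled library. S3 RiboMinus RNA gave 0 of 79 in either direction by edgeR and by DESeq2, with 0.422% of all genes lower and 2.04% higher by edgeR, 10 members at an unadjusted p under 0.05 and a median of -0.39. There the difference between these labels was not detectable, which does not show that they act alike.

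The response to the Rrp6 label was tested between lines in one fit of all poly(A) libraries, as the S3 change minus the S2 change. All 73 main copies tested had a difference below 0, with a median of -1.12 over the 81 members tested against 0.08 over all genes. Of the members, 4 passed the test as lower and 0 as higher (edgeR), where 0.835% of all genes tested were lower and 1.8% higher. RpL15 had 1077 and 2923 CPM in Rrp6-labelled S3 libraries, against 2899, 4758 and 9722 in S3 GFP libraries, and 3000 and 3473 in Rrp6-labelled S2 libraries, against 3491 and 2942 in S2 GFP libraries. It was close to GFP in S2 (0.01 ± 0.18) and lower in S3 (-1.80 ± 0.27), a difference of -1.81 ± 0.40 (adjusted p = 0.0279). RpL36 (-1.62 ± 0.37, adjusted p = 0.0314), RpL3 (-1.61 ± 0.38, adjusted p = 0.0384) and RpL8 (-1.34 ± 0.33, adjusted p = 0.0412) were the others. The 4 are large-subunit genes. The count is 20 with RLE scaling, and it was 0 without either S2 GFP library, the deeper Rrp6-labelled library of either line or the deeper Csl4-labelled S2 library, and 44 without the shallower Rrp6-labelled S3 library.

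**Figure D4:**
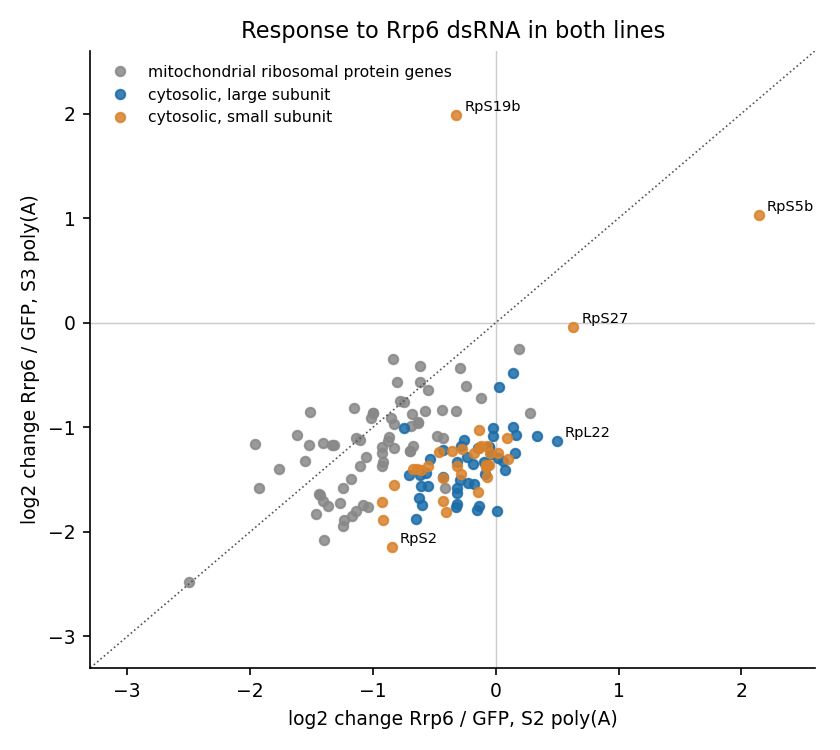
Log2 change of each ribosomal protein gene with the Rrp6 label in S2 poly(A) RNA (horizontal axis) and S3 poly(A) RNA (vertical axis), with mitochondrial ribosomal protein genes in grey and a dotted line of equal change. All 73 main copies lie below that line, with medians of -0.18 in S2 and -1.36 in S3 over all members tested.

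With GFP dsRNA, S3 and S2 cells differed in few main copies. Of 81 genes tested, 4 were higher and 8 lower in S3 than in S2 poly(A) RNA (edgeR), against 17.0% and 18.6% of all genes. The median was 0.16. RpL15 had 2899, 4758 and 9722 CPM in S3 GFP libraries, against 3491 and 2942 in S2 GFP libraries, each scaled within its own line. In the joint fit it was higher in S3 by 1.11 ± 0.27 (adjusted p = 0.00574), though libraries of the lines overlapped. RpS21 (1.05 ± 0.25, adjusted p = 0.00513), RpL4 (0.86 ± 0.25, adjusted p = 0.0164) and RpL3 (0.74 ± 0.26, adjusted p = 0.0391) were the other 3. RpL12, part of the base of the stalk, had 1472, 1579 and 2064 in S3, against 4134 and 5073 in S2, with no overlap (-1.15 ± 0.26, adjusted p = 0.00324). RpL35 (-0.93 ± 0.27, adjusted p = 0.0131), RpL21 (-0.67 ± 0.22, adjusted p = 0.0296), RpS7 (-0.58 ± 0.21, adjusted p = 0.0444) and 4 paralogs described below were also lower in S3. The lines were compared within the poly(A) fraction and their block effects were fitted separately.

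Ribosomal protein genes were lower in rRNA-depleted than in poly(A)-selected RNA of the same line. In S3 GFP libraries 64 of 79 were lower and 0 higher in RiboMinus than in poly(A) RNA (edgeR), against 5.08% and 8.43% of all genes, with a median of -1.14 against -0.08 for all genes. RpL23A had 565 and 190 CPM in RiboMinus, against 1728, 2003 and 5196 in poly(A) GFP libraries, with no overlap and a change of -3.18 ± 0.30 (adjusted p = 2.4e-07). RpL37-1 (-2.37 ± 0.39, adjusted p = 0.000355) and RpL28 (-1.91 ± 0.28, adjusted p = 8.09e-05) followed. Of the genes listed by role, sta (-0.38 ± 0.25), RpL5 (-0.42 ± 0.28), RpL3 (-0.65 ± 0.26), RpLP0 (-0.77 ± 0.27) and RpS2 (-0.80 ± 0.28) did not pass. The count was 4 without the deeper and 14 without the shallower RiboMinus GFP library.

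The response to the Rrp6 label did not differ detectably between fractions. The change in RiboMinus minus that in poly(A) RNA gave 0 of 79 members lower (0.0% of all genes) and 0 higher (0.0% of all genes) by edgeR. At an unadjusted p under 0.05 stood 3 members, and the median was 0.34 against -0.08 for all genes. Of 73 main copies tested only 3 had a difference below 0, so most values lay toward a smaller fall in RiboMinus RNA. The genes share libraries, so that count is no test. RpLP0 had the largest value (1.0 ± 0.39, adjusted p = 1), with a change of -0.77 in RiboMinus and -1.88 in poly(A) RNA.

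S2 RiboMinus RNA had 1 library a group, so its values carry no replicate check and no test. Members were set against GFP by the authors' size factors where both libraries together held at least 20 reads. With the Rrp6 label 2 of 75 members were at least 2-fold lower and 0 higher, where 11.5% of all genes were as much lower and 12.6% higher, and the median log2 ratio was -0.23 against -0.08. RpS7, a small-subunit protein, had 33 reads in the Rrp6-labelled library, against 86 in the GFP library (-1.06), and RpS20 had 7 against 19 (-1.12). The Rrp40 label gave 1 of 76 lower and 2 higher (3.06% and 4.46% of all genes), with a median of 0.25. For the Csl4 label 1 of 75 was lower and 3 higher (3.65% and 7.3% of all genes), with a median of 0.24, and RpL24-like and RpL38 stood at exactly 2-fold. With TMM factors 1 was higher with either label. The member share of gene reads was 5.16% with the Rrp6 label, 5.34% with Rrp40 and 8.38% with Csl4, against 7.93% with GFP. The targeted gene itself stood at 183565 CPM in the Rrp6-labelled library and 256724 CPM in the Rrp40-labelled one, which lowers every other share there.

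Paralogs were set beside their main copies as the ratio of their reads within a library, without a correction for length. RpS14a and RpS14b, near-identical neighbours whose reads the counting could have split, stood at 175 to 482 reads of RpS14a per 100 of RpS14b, and their separate levels are uncertain. RpL24-like, related to a factor of large-subunit assembly in yeast, had 11.1 to 38.2% of the reads of RpL24. RpL34a had 2.13 to 33.8% of those of RpL34b, and RpS15Ab 3.45 to 20.6% of those of RpS15Aa. RpS5b stayed at 0 to 3.22% of RpS5a, and RpS19b at 0 to 4.35% of RpS19a. The others had few reads over all libraries (97 for RpL37-2, 85 for RpL22-like, 6 for RpS28-like, 2 for RpS28a, 1 for RpL10Aa and 0 for RpL7-like). RpS10a had 221 reads, and its main copy was not analysed here.

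Low paralogs did not share the fall of their main copies in every case. RpS19b, which is enriched in germline cells, had 7.44 and 11.5 CPM in Rrp6-labelled S3 poly(A) libraries (51 and 12 reads), against 1.78, 1.78 and 3.88 in GFP libraries (11, 135 and 3 reads). It rose by 1.99 ± 0.55 (adjusted p = 0.0189, edgeR) with no overlap, while RpS19a fell by 1.18 ± 0.25 (adjusted p = 0.00566). Its share of the reads of RpS19a was 1.5 and 0.649% with the Rrp6 label, against 0.159, 0.142 and 0.103% with GFP. The share was also above all GFP values with the Csl4 label (0.415 and 0.221%), but only in the deeper library with the Rrp40 label (0.345 and 0.0567%). The call of RpS19b with the Rrp6 label was lost without either deeper GFP library or the deeper Rrp6-labelled library. RpS5b, the ovary-enriched copy, had 10.6 and 13.4 CPM in Rrp6-labelled S2 libraries (67 and 10 reads), against 2.62 and 2.32 in GFP libraries (23 and 2 reads). It rose by 2.14 ± 0.58 (adjusted p = 0.00615), and RpS5a changed by 0.10 ± 0.18 (adjusted p = 0.693). This call was lost without the deeper GFP or the deeper Rrp6-labelled library. For S3 poly(A) RNA RpS5b changed by 1.03 ± 0.61 (adjusted p = 0.211) and RpS5a by -1.30 ± 0.25 (adjusted p = 0.00358). Markers of germline cells summed to 79.6 to 98.5 CPM in Rrp6-labelled S3 poly(A) libraries, against 46.8 to 54.8 in GFP libraries. In S2 poly(A) the sums overlapped, with 134 and 102 CPM against 139 and 46.8. S3 RiboMinus sums overlapped as well, at 80.8 and 43.6 CPM against 33.8 and 79.6. Of 2 germline markers tested in S3 poly(A) RNA, 1 passed as higher and 1 was below 0 (edgeR, 19.7% of all genes higher). Of 3 tested in S2 poly(A) RNA, 1 passed as higher and 2 were below 0 (20.2% of all genes higher). The part of these markers in the paralogs' values was not tested. Of the 6 germline markers on the list, 4 were in the files, and of these 0 and 1 were at 0 in the deeper and shallower Rrp6-labelled S3 poly(A) library, against 0, 0 and 2 in the GFP libraries.

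RpL34a and RpS15Ab fell in some sets, also where their main copies did not pass the test. RpL34a had 75.3 and 18.7 CPM in Rrp6-labelled S3 RiboMinus libraries (531 and 2 reads), against 185 and 218 in GFP libraries (1188 and 31 reads), and fell by 1.79 ± 0.36 (adjusted p = 1.82e-05, edgeR). It also fell in S2 poly(A), with 188 and 189 CPM against 305 and 334 (-0.75 ± 0.20, adjusted p = 0.00595), where RpL34b changed by 0.02 ± 0.18 (adjusted p = 0.953). In S2 RpS15Ab fell by 0.67 ± 0.22 (adjusted p = 0.0178), with 116 and 111 against 203 and 158, where RpS15Aa changed by -0.14 ± 0.20 (adjusted p = 0.606). RpL24-like passed no test with the Rrp6 label (-0.61 ± 0.26 for S3 poly(A) RNA, -0.58 ± 0.31 for S3 RiboMinus RNA and 0.03 ± 0.19 for S2). Differences between a paralog and its main copy were not themselves tested.

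Among members, the largest line differences with GFP dsRNA were those of low paralogs. RpS10a, a testis-enriched copy, had 1, 1 and 0 reads in the S3 GFP libraries, of which one is deeper than either S2 library, against 71 and 3 reads in the S2 GFP libraries. It was called lower in S3 (adjusted p = 0.000571, edgeR). RpS19b had 1.78, 1.78 and 3.88 CPM in S3, against 33.7 and 27.8 in S2, with a change of -3.54 ± 0.41 (adjusted p = 9.78e-06). RpL37-2 had 2, 6 and 0 reads in S3, against 33 and 1 in S2 (adjusted p = 0.0318). RpL24-like was also lower in S3 (-0.81 ± 0.23, adjusted p = 0.0123).

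**Figure D5:**
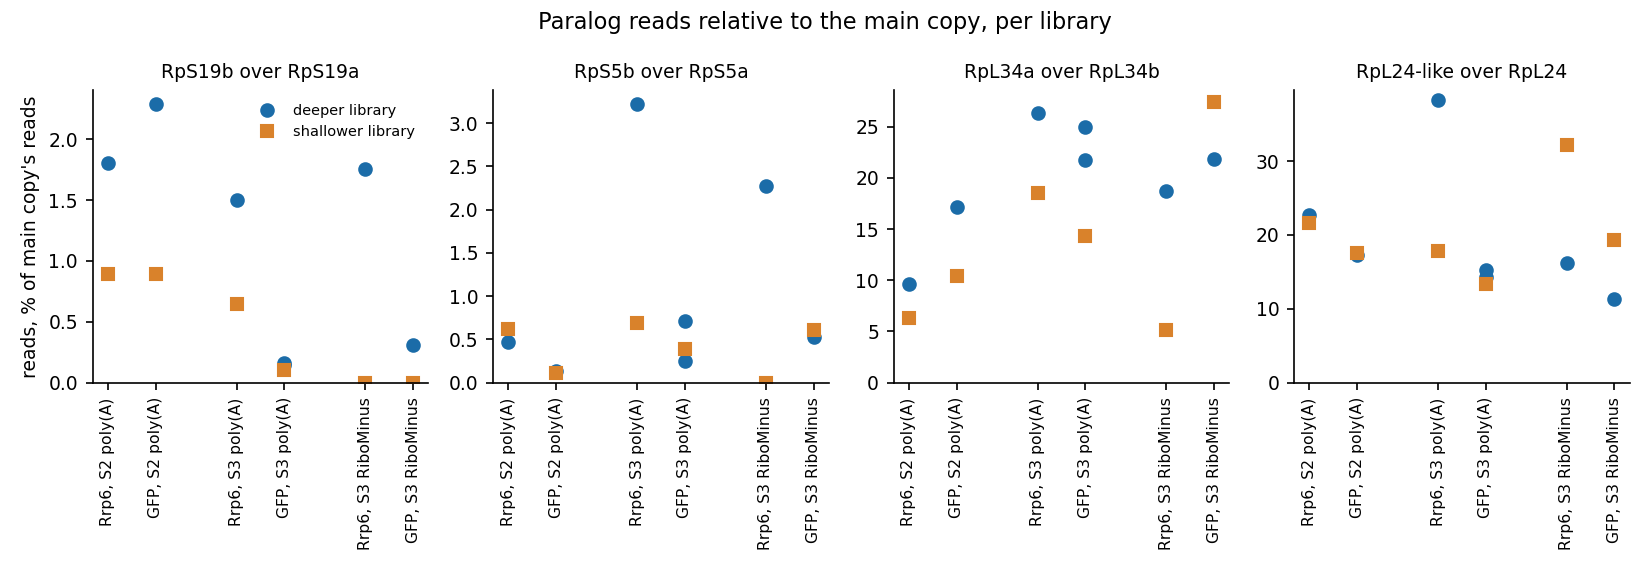
Reads of 4 paralogs as a percentage of the reads of their main copies (vertical axes) in Rrp6-labelled and GFP libraries by line and fraction, with circles for deeper and squares for shallower libraries. RpS19b stands at 1.5 and 0.649% of RpS19a in Rrp6-labelled S3 poly(A) libraries, against 0.103 to 0.159% in GFP libraries. Csl4- and Rrp40-labelled libraries are not drawn.

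Large- and small-subunit genes had similar medians in each set. With the Rrp6 label in S3 poly(A) RNA 43 of 46 large-subunit genes were lower (median -1.34), and 29 of 33 small-subunit genes were lower and 1 higher (median -1.36). S3 RiboMinus gave 33 of 46 large-subunit (median -0.91) and 25 of 33 small-subunit genes lower (median -0.94). For S2 poly(A) the numbers were 10 of 46 (median -0.18) and 8 of 34 with 2 higher (median -0.23). The ratio of small- to large-subunit reads was 0.733 and 0.714 in Rrp6-labelled S3 poly(A) libraries, against 0.739, 0.705 and 0.715 in GFP libraries. In S2 it was 0.611 and 0.579 with the Rrp6 label, against 0.658 and 0.625 with GFP, lower within each depth class. The Csl4-labelled (0.632 and 0.590) and Rrp40-labelled (0.599, shallower) libraries of that set were also below the GFP library of their class. Of the 6 genes lower with the Csl4 label in S3 RiboMinus RNA, 5 are large-subunit and 1 is small-subunit.

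Mitochondrial ribosomal protein genes, which share the name but serve the organelle, fell in both lines with the Rrp6 label. Of 68 tested, 54 were lower in S2 poly(A) (median -0.96), 53 in S3 poly(A) (median -1.16) and 25 in S3 RiboMinus RNA (median -1.14), and none were higher (edgeR), where 16.9, 16.4 and 7.35% of all genes were lower. mRpL55 was among the lowest, with -2.50 ± 0.38 in S2 (adjusted p = 2.72e-05) and -2.48 ± 0.52 in S3 poly(A) RNA (adjusted p = 0.00587). In S2 the cytosolic set had 18 of 80 lower, and the difference between the sets was not tested. In the test of the response between lines 0 of 68 mitochondrial genes passed, where 0.835% of all genes were lower and 1.8% higher. That count is near the background and does not show an equal response in both lines. Their median for S3 minus S2 was -0.27, against -1.12 for the cytosolic genes, and these medians were not tested against each other.

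Elongation factors and other translation genes were followed as a list of 12 symbols, 9 of them in the files. With the Rrp6 label 4 of 8 were lower and 1 higher in S2 poly(A), 4 of 9 lower and 1 higher in S3 poly(A), and 3 of 9 lower in S3 RiboMinus RNA (edgeR). All genes tested gave 16.9, 16.4 and 7.35% lower and 20.2, 19.7 and 12.4% higher in the same order. Rack1, a ribosome-bound scaffold of the small subunit, had 250 and 570 CPM in Rrp6-labelled S3 poly(A) libraries, against 1063, 1468 and 1794 in GFP libraries, without overlap. It fell in all 3 sets, with -2.05 ± 0.29 there (adjusted p = 0.000938), -1.11 ± 0.30 in S3 RiboMinus (adjusted p = 0.00228) and -0.54 ± 0.19 in S2 poly(A) RNA (adjusted p = 0.033). eEF1gamma fell by 1.20 ± 0.22 in S3 poly(A) (adjusted p = 0.00278) and eEF1beta fell by 0.99 ± 0.21 (adjusted p = 0.00587), both subunits of the elongation factor complex that reloads eEF1A. eEF2, which translocates the ribosome, rose in S2 by 0.91 ± 0.17 (adjusted p = 0.000357) and changed by -0.02 ± 0.24 in S3 poly(A) RNA (adjusted p = 0.959). eEF1alpha2 rose in S3 poly(A) RNA by 2.4 ± 0.53 (adjusted p = 0.0075).

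Of the 8 genes of the TOR growth pathway tested, none was called lower with the Rrp6 label, and few were called higher. S2 poly(A) RNA had 2 called higher, a list median of -0.13 and 5 of the 8 below 0. The S3 poly(A) set also had 2, with a median of 0.24 and 4 of the 8 below 0. For S3 RiboMinus RNA the count was 3, the median 0.32 and 2 of the 8 lay below 0. With 20.2 and 19.7% of all genes higher, 2 of 8 is near the background of the poly(A) sets. The genes named next are thus not the list as a whole. Myc, which drives ribosome synthesis, rose by 1.28 ± 0.22 in S2 (adjusted p = 0.000107), 2.22 ± 0.33 in S3 poly(A) (adjusted p = 0.00117) and 1.34 ± 0.34 in S3 RiboMinus RNA (adjusted p = 0.00113), all by edgeR. foxo, a transcription factor held back by growth signals, rose by 0.72 ± 0.21 (adjusted p = 0.0106), 0.81 ± 0.24 (adjusted p = 0.0242) and 1.45 ± 0.28 (adjusted p = 7.66e-06) in the same order. Thor, the 4E-BP translation repressor, rose in S3 RiboMinus RNA by 1.65 ± 0.35 (adjusted p = 8.02e-05). Both Myc and foxo thus rose in each of the 3 sets, in which 20.2, 19.7 and 12.4% of all genes did.

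Of 5 genes for ribosomal protein gene transcription or the Minute response, 3 rose and 1 fell in each poly(A) set, and 2 rose in S3 RiboMinus RNA, where 20.2, 19.7 and 12.4% of all genes rose and 16.9, 16.4 and 7.35% fell (S2 first, then the S3 fractions in this order). Trf2, the TBP-related factor that acts at ribosomal protein promoters, rose by 1.65 ± 0.27 in S2 (adjusted p = 7.04e-05), 1.20 ± 0.25 in S3 poly(A) (adjusted p = 0.00531) and 1.02 ± 0.27 in S3 RiboMinus RNA (adjusted p = 0.00241). Xrp1, the transcription factor of the Minute response, rose by 0.52 ± 0.19 in S2 (adjusted p = 0.033) and 1.23 ± 0.29 in S3 poly(A) RNA (adjusted p = 0.0091) and changed by 0.22 ± 0.28 in RiboMinus RNA (adjusted p = 0.641). Its partner Irbp18 rose in all 3, by 0.77 ± 0.24 (adjusted p = 0.0165), 1.15 ± 0.31 (adjusted p = 0.0166) and 1.68 ± 0.57 (adjusted p = 0.0202). Dref, a factor that binds promoters of growth and replication genes, fell in S2 (-1.09 ± 0.25, adjusted p = 0.00155) and S3 poly(A) RNA (-1.4 ± 0.32, adjusted p = 0.00803). All p-values are from edgeR.

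The authors' deposited tables, made with another model on the same reads, called no ribosomal protein gene lower in any of the 12 comparisons, where 0.057% of all tests in these tables were called lower. For the Rrp6 label the authors' deposited tables called 0.348% of all genes lower for S3 poly(A) RNA, 0.131% for S3 RiboMinus RNA and 0.0324% for S2 poly(A) RNA. The authors' deposited tables called RpS19b higher in S3 RiboMinus RNA with the Rrp6 label, with 2.67% of all genes higher, and with the Csl4 label, with 0.428%. RpS19b rests on the deeper library in that fraction, with 51 reads in the Rrp6-labelled, 59 in the Csl4-labelled and 13 in the GFP library, and on 0 reads in each shallower one.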

How the data were processed

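The deposited tables give no reads. Their signal columns are group means of reads over DESeq size factors, computed by the authors. Fold columns are the authors' ratio of knockdown over GFP means, log2 columns are the authors' log2 of that ratio, and p-value columns are the deposited DESeq p-values, raw and adjusted. The submitters' processing notes list DESeq 1.9.11, HTSeq 0.5.3p9, TopHat 1.4.1, cutadapt 1.0 and CASAVA 1.8, and the fit was local per the file headers. Strand use in counting is not given in the sources at hand, and overlapping genes cannot be told apart. The peak lists were not used.

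Reads of 28 libraries were recovered from the means, using libraries that several tables share; in simulated means 15000 of 15000 values came back at each depth ratio tried. Which library of a knockdown group is replicate 3 was taken from its lower depth, as shared tables show it for GFP. The 5 summary lines of HTSeq (80.3 to 91.9% of the mean total) were left out. Symbols matched 14085 of 15065 gene IDs. Because the files held means, the count test ran on recovered reads: edgeR 4.0.16 in R 4.3.3, quasi-likelihood, TMM, its default low-count filter, Benjamini-Hochberg over all genes, with depth class as a block. SE was derived from F and the log2 change. Since separate cultures are not stated, p-values cover only the spread among these samples, which may be technical. The weight of the spread shared over genes (edgeR prior degrees of freedom) was 6.09 for S3 poly(A) and 20.4 for S2 poly(A) RNA. For S3 RiboMinus RNA it was infinite, with 3 residual degrees of freedom. In that set p-values rest on the spread shared by all genes and not on that of the gene itself. The fits were tested on simulated data.

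The replicate classes pair the libraries: deeper-minus-shallower differences correlated between groups at r of 0.363 to 0.694 for S3 poly(A) (6 pairs), 0.250 to 0.347 for S3 RiboMinus (6 pairs) and 0.646 to 0.681 for S2 poly(A) (3 pairs). Alternatives were no block, RLE scaling, TMM without the members, no filter, DESeq2 1.42.0, a knockdown's own libraries, each library left out and the authors' adjusted p. Except for the authors' adjusted p, member counts under these alternatives are given without the count of all genes. Genes named are paralogs with main copies, the 3 lowest and 3 highest main copies per knockdown comparison, genes listed by role, and up to 3 called genes of each other list; further genes, such as RpS7 and those called between lines, were named after their values were seen. The members and lists were chosen with earlier results of these data known.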

Additional observations from a re-analysis of the deposited data

Results flagged for a closer look

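In 4 large-subunit genes the change with the Rrp6 label differed between the lines by a direct test of that difference (edgeR, joint fit of all poly(A) libraries, S3 change minus S2 change). The difference was -1.81 for RpL15, -1.62 for RpL36, -1.61 for RpL3 and -1.34 for RpL8 on the log2 scale. RpL36 had 388 and 2196 CPM in Rrp6-labelled S3 libraries, against 1515, 1834 and 5726 in S3 GFP libraries. In S2 it had 1706 and 4132 with the Rrp6 label, against 1973 and 4431 with GFP. RpL8 had 833 and 2790 in Rrp6-labelled S3 libraries, against 2241, 2593 and 7103 with GFP, and in S2 4378 and 7148, against 4337 and 8219. Each of the 4 was called in 6 to 10 of the 16 fits that leave out one library. RpL15 and RpL3 were also higher in S3 than in S2 with GFP dsRNA, and the part of that in the difference was not tested. A search for single libraries far from the others of their group could not be made, since groups held 1 to 3 libraries.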

How the results depend on the processing

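The calls depend on the replicate block. With no replicate block, 0 members were called lower with the Rrp6 label in any of the 3 replicated sets, 0 with the Csl4 label in S3 RiboMinus RNA, 0 for Rrp6 against Csl4 in both poly(A) sets, 0 for the response between lines, 0 for RiboMinus against poly(A) in GFP libraries, and 3 for S3 against S2 in GFP libraries. The authors' deposited tables gave 0 with the Rrp6 label in 3 sets and 0 with the Csl4 label in S3 RiboMinus RNA. DESeq2 with the block gave 7 for Rrp6 against Csl4 in S2 and 3 with the Csl4 label in each S3 fraction. Without the filter the Csl4 label gave 2 in S3 poly(A) RNA, and on its own libraries 2 in S3 RiboMinus RNA. RLE scaling gave 20 for the response between lines.

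Leaving out one library at a time, members called lower ran with the Rrp6 label from 41 to 75 for S3 poly(A), 17 to 66 for S3 RiboMinus and 4 to 22 for S2 poly(A) RNA, and from 0 to 6 with the Csl4 label in S3 RiboMinus and 0 to 1 in S2 poly(A) RNA. Rrp6 against Csl4 ran from 0 to 67 in S3 and 0 to 17 in S2 poly(A) RNA, the response between lines from 0 to 44, S3 against S2 from 2 to 10 and RiboMinus against poly(A) from 4 to 71. With the Rrp6 label 41, 13 and 3 members were called lower in every such fit, in the same order of sets. The causes were not tested beyond the smaller number of samples. No called change of a single gene turned its sign under any alternative. Of the single-gene results compared under the alternatives, 5049 stayed the same. Another 287 were classed as moved, 267 as weaker and 99 as stronger. Without the block nearly all calls of members as lower were lost, as given above. TMM without the members kept every count within 1.5 times. DESeq2 moved the median of all genes to 0.43, 0.31 and 0.32 with the Rrp6 label in that order, where the members had -1.27, -0.87 and -0.19. Depth limits S2 RiboMinus RNA and the shallower S3 RiboMinus libraries most.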
